A study of Mus musculus with 16 samples.

Results

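The histone mark H3K27me3 was compared between a mouse embryonic stem cell (mESC) line carrying a doxycycline-inducible transgene for the long non-coding RNA Firre and the control line with which it was paired, both with the endogenous Firre gene labelled wild type (WT). The members were chosen by their labels: the H3K27me3 and input ChIP-seq libraries of these lines at 0 h and 48 h, which are 8 of the 16 libraries of the series. All 102957 peaks of the consensus set were followed, whatever their values. The control line has the genotype WT, and the transgene line carries a Firre inducible transgene beside its WT Firre. The other 8 libraries, of a line labelled Firre KO and a Firre KO line with the same kind of transgene, serve for 1 comparison at the end. Every library is labelled as treated with doxycycline, for 0 or 48 h. Each combination of line, time and assay is 1 library, so the contrast set 2 H3K27me3 libraries of the transgene line against 2 of the control line, with time as a block. All cells grew in serum medium with LIF, the MEK inhibitor PD0325901 and the GSK3 inhibitor CHIR99021, and the mark was immunoprecipitated with the C36B11 antibody. The labels name neither separate cultures nor clones, so p-values measure only the spread between these libraries, which may be technical. The labels do not give the promoter of the transgene. With 1 line per genotype, the transgene and any other difference between the lines cannot be told apart.

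H3K27me3 is deposited by Polycomb repressive complex 2 (PRC2) and marks genes that are kept silent but can be activated later. In embryonic stem cells it forms broad domains over the Hox clusters and compact peaks over CpG-rich promoters of other developmental regulators. Firre is transcribed from the X chromosome, stays in the nucleus and is known for contacts with loci on other chromosomes and for a part in keeping H3K27me3 on the inactive X. Input is chromatin sequenced without immunoprecipitation, and its counts follow the number of copies of a sequence as well as how readily it is sheared and aligned.

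The start sites below lie inside peaks whose H3K27me3 differed between the lines. Each line gives the 250 bases before the start site from RefSeq (assembly GRCm38.p6), 5′ to 3′ on the gene's strand, in lower case with every CG dinucleotide in capitals, because CpG-rich start sites are where Polycomb marks are usually found. Hoxa13, at chr6:52260881-52261130 on the minus strand, is 1 of many start sites in the HoxA domain and holds 35 CG. In the same domain Hoxa11os also holds 35, but Hoxa2 holds 6, Hoxa9 3 and Mira 1. Inhbb, at chr1:119422249-119422498 on the minus strand with 21 CG, and Ache, at chr5:137288004-137288253 on the plus strand with 25 CG, lie in compact peaks that were higher in the transgene line. 1700039I01Rik, at chr1:63253197-63253446 on the minus strand with 6 CG, is the only listed start site inside the peak over Zdbf2, which was also higher. Icosl, at chr10:78069118-78069367 on the plus strand with 23 CG, and Atoh1, at chr6:64728875-64729124 on the plus strand with 14 CG, lie in peaks that were lower.
Hoxa13: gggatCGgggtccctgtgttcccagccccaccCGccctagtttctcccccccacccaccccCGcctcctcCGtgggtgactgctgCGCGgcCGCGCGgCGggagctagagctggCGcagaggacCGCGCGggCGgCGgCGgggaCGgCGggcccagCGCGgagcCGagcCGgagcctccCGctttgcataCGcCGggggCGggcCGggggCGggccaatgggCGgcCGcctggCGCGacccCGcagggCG
Inhbb: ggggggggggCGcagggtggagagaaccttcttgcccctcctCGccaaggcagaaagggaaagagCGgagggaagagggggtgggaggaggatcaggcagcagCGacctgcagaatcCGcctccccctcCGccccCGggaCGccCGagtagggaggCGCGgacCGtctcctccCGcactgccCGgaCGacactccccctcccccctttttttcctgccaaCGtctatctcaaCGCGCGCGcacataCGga
Ache: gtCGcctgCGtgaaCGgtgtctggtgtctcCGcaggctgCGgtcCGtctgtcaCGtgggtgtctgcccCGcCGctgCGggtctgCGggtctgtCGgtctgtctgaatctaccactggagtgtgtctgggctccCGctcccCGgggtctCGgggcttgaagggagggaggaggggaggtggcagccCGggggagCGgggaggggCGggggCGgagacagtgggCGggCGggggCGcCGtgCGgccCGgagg
1700039I01Rik: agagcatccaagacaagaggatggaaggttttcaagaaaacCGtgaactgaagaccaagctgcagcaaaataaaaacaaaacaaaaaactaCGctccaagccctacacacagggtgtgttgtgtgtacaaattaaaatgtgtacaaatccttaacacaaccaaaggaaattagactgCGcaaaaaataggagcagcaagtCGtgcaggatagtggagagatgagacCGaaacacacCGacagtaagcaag
Icosl: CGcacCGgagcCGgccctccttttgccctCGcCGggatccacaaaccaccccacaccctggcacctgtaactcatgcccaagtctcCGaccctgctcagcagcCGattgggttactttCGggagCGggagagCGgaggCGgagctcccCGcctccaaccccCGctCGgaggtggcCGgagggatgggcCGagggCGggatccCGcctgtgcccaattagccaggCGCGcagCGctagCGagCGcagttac
Atoh1: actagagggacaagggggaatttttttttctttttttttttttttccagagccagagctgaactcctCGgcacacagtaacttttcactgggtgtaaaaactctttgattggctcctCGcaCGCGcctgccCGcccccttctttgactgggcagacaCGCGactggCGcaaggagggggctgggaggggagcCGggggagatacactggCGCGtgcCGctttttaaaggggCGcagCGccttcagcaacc
CG reads the same on both strands. Of all 32851 promoters of the same length, 92.1% hold at least 1 CG, with a median of 6 per promoter. The median was 5 over the 9904 start sites inside any peak, 11 over the 460 inside peaks that were higher in the transgene line and 16 over the 13 inside peaks that were lower.

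The 4 H3K27me3 libraries held 13011769 to 13804844 counts over the consensus peaks, and the 4 input libraries 5870865 to 6244333. H3K27me3 libraries of the same line differed by a chi-square per degree of freedom of 1.04 to 1.07 over peaks with at least 20 counts in the pair, where 1 is counting noise alone, and libraries of different lines by 1.12 to 1.23. The corresponding values for input were 1.00 to 1.01 and 1.02. All 8 libraries were kept as separate samples, as labelled. Values near 1 within a line do not show that its libraries are independent.

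Firre itself was examined first, as a check of the labels. A single consensus peak of 949 bp lies within the Firre gene, at chrX:50569315-50570264. In input, the control line had 3 counts at 0 h and 6 at 48 h, and the transgene line 89 and 104. The pooled input ratio, scaled to library totals, was 21.5 (95% exact interval 11.1 to 47.8, counting error only). The libraries labelled as transgenic thus held more of this sequence. In H3K27me3, the control line had 1 count at 0 h and 0 at 48 h, and the transgene line 263 and 57. The lines did not overlap at either time in either assay.

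The H3K27me3 ratio between the lines at Firre was 254 at 0 h (45.2 to 10072), with a single count in the control library. At 48 h it was at least 19.99-fold higher in the transgene line, against a floor of 3 counts in the control library (exact 95% lower limit, counting error of both libraries included, 15.7). Within the transgene line, H3K27me3 scaled to library totals was at 48 h 0.222 of that at 0 h (0.164 to 0.297), while input gave 1.10 (0.820 to 1.47). The lower H3K27me3 at 48 h, seen in 1 library at each time, had no counterpart in input. Against input, the line difference at Firre did not pass the test (adjusted p = 0.656, edgeR).

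Across the genome, H3K27me3 was higher in the transgene line at 307 of 102927 tested peaks, or 0.298%, and lower at 40, or 0.0389% (edgeR quasi-likelihood test with time as block, Benjamini-Hochberg adjusted p under 0.05). An unadjusted p under 0.05 was reached by 7853 peaks. Most of the higher peaks were broad domains with small differences. Their median width was 30628 bp, against 2357 bp over all tested peaks, and 66.1% were 20 kb or wider, against 3.45% of all. Their median difference was 0.18 on the log2 scale, 0.18 at 0 h and 0.19 at 48 h, and 219 of the 307 differed by less than 0.25. All 307 were higher in the transgene line at both times, beside 27438 of the 102927 tested peaks, and 14 differed by 1 or more. The calls rest on these same libraries, so agreement at both times is no separate evidence.

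The 307 higher peaks were also, at the median, more enriched in the mark than other peaks. Their median H3K27me3 over input was 0.59 on the log2 scale, a 1.51-fold enrichment, where the median of all tested peaks was −0.20. A start site lay in 183 of them, or 59.6%, against 7.01% of all tested peaks. Median input differed by 0.01 on the log2 scale at these peaks. Larger counts make small differences easier to call, and the median mean count of the higher peaks was 1304, against 57.5 over all.

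The 40 lower peaks were of another kind. Their median width was 4946.5 bp, their median difference −0.54 on the log2 scale and their median H3K27me3 over input −0.32, so most of them held less of the mark per input count than the average peak region. A start site lay in 8 of them, and 39 were lower at both times, which again is no separate evidence. In this group 6 peaks were on chromosome 11, 6 on scaffolds outside the assembled chromosomes and 5 in a stretch of chromosome 6 described below. Of all 102927 tested peaks, 5800, 136 and 377 lay in these 3 places, and of the 307 higher peaks 13, 4 and 0.

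The fit left 1 residual degree of freedom. Its common dispersion was 9.77e-05, a value returned alike for peaks, gene regions and bins in both assays. It is therefore not read as a measured spread between libraries, and the counts of called peaks depend heavily on the model. DESeq2 called 4 peaks higher (Firre and 3 peaks of the scaffold JH792827.1) and 0 lower. Leaving out 1 library, in a fit over all 8 H3K27me3 libraries, left 46 higher peaks without the control library at 0 h, 21 without the control library at 48 h, 79 without the transgene library at 0 h and 69 without that at 48 h. With scaling by total counts, 127 were higher and 52 lower, so the higher share of the calls fell from 88.5% to 70.9%.

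The line difference followed the enrichment of the peak. Peaks were ranked by their mean H3K27me3 over input in the 4 pairs of libraries. In the lower 50% of peaks (51463 peaks) the median difference was −0.03 on the log2 scale, and 44.3% were above 0. It was 0.04 between the 90th and 95th percentiles, 0.08 between the 95th and 99th, and 0.12 in the top 1% (1030 peaks), where 85.05% were above 0. In that top class the median was 0.11 at 0 h and 0.13 at 48 h, its input median was −0.00, and 120 peaks, or 11.7%, were called higher and 0 lower. The part of the efficiency of each immunoprecipitation in this trend was not tested.

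**Figure D1:**
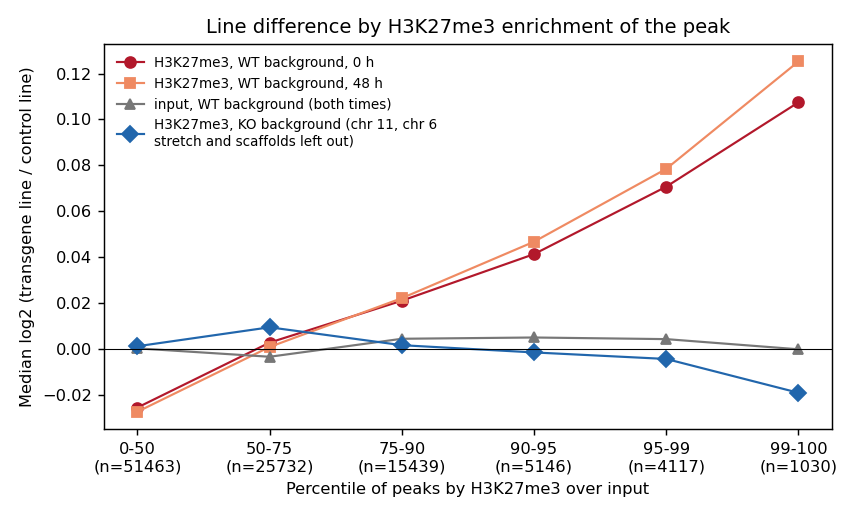
Median log2 difference between the transgene and control lines (vertical axis) in classes of peaks ordered by H3K27me3 over input (horizontal axis, percentiles with the number of peaks), for H3K27me3 at each time, for input, and for the KO background without chromosome 11, the chromosome 6 stretch and scaffolds. H3K27me3 climbs from −0.03 in the lower 50% to 0.12 in the top 1%, while input stays near 0.

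An offset that follows the enrichment of each peak was therefore tried as an alternative. It left 24 peaks higher and 25 lower, and 24 of the 307 reported higher peaks (7.82%) were among them. The median of the top 1% became −0.00. That follows from the offset, which is fitted to the same enrichment values and takes the trend out by construction. With the other scalings and models that kept both classes, the gap between the top 1% and the lower 50% of peaks stayed at 0.14 to 0.15 on the log2 scale. Scaling factors shift all peaks of a library alike, so they could not change this gap, and the models used the same counts.

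Only 3 of 101859 peaks, or 0.00295%, were higher in H3K27me3 relative to their matched input, and 0 (0%) lower; 5718 had an unadjusted p under 0.05. These were the peaks over Zdbf2, Etv4 and the HoxA cluster. DESeq2, scaling by total counts, and a fit without an assay by time term each called 0 higher in the same comparison. Over Zdbf2, an imprinted gene expressed from the paternal allele, lies a peak of 21136 bp at chr1:63247900-63269036. Its H3K27me3 was 38.3 and 36.5 CPM (counts per 1000000, scaled between libraries) in the control line at 0 h and 48 h, and 55.7 and 48.4 CPM in the transgene line. The lowest transgene library was above the highest control library. The difference was 0.47 ± 0.06 (log2, SE, adjusted p = 2.44e-11, edgeR), input differed by −0.06 ± 0.09, and H3K27me3 relative to input by 0.53 ± 0.10 (adjusted p = 0.0336, edgeR). Of the 8 peaks placed at Zdbf2, only this one was called, with 6 above 0 and 2 below. No listed Zdbf2 start site lies in it, and the peak that holds one differed by 0.31 and was not called.

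Etv4 encodes an ETS transcription factor of the FGF and ERK pathway. Its peak, at chr11:101770129-101794050, measured 44.4 and 46.6 CPM in the control line and 56.7 and 64.5 CPM in the transgene line. Here too the lines did not overlap. The difference was 0.41 ± 0.06 on the log2 scale (SE, adjusted p = 3.34e-10, edgeR), against −0.07 ± 0.08 in input. Zdbf2 kept its call in 16 of 17 alternatives and Etv4 in 14 of 15, and DESeq2 was the exception for both. Neither peak was strongly marked: H3K27me3 over input was −0.11 at Zdbf2 and −0.06 at Etv4 on the log2 scale.

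Peg10, a paternally expressed gene derived from a retrotransposon, had the largest difference, after Firre, among peaks of at least median count on the assembled chromosomes. Its peak of 2012 bp at chr6:4753434-4755446 measured 2.37 and 2.94 CPM in the control line and 7.50 and 5.21 CPM in the transgene line. The difference was 1.25 ± 0.19 (log2, SE, adjusted p = 4.57e-07, edgeR), while input differed by −0.30 ± 0.26. The neighbouring Peg10 peaks differed by 0.82 and 0.13 and were not called. Relative to input the first peak missed the threshold (1.54 ± 0.33, adjusted p = 0.0784, edgeR), and its H3K27me3 call was lost without either 0 h library and with DESeq2.

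Cd86, a ligand that costimulates T cells, held 1 called peak, and another was called 5912 bp outside the gene. The first, at chr16:36634173-36636537, measured 3.74 and 4.08 CPM in the control line and 7.65 and 8.36 CPM in the transgene line, a difference of 1.03 ± 0.17 (log2, SE, adjusted p = 2.49e-06, edgeR). Input was also higher there, by 0.50 ± 0.22. A further peak over Cd86, at chr16:36661199-36668750, was 1 of the 7 peaks called higher in input (0.79 ± 0.14, log2, SE). The first peak was not called in input (adjusted p = 0.919, edgeR), nor the further peak in H3K27me3 (adjusted p = 0.0555, edgeR). Input thus moved in the same direction as H3K27me3 over this gene, and its part in the result was not tested.

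Disp1 encodes a membrane protein that releases lipid-modified Hedgehog ligands. Its peak at chr1:183085884-183090392 measured 7.26 and 6.16 CPM in the control line and 11.3 and 10.8 CPM in the transgene line. The difference was 0.72 ± 0.14 (log2, SE, adjusted p = 0.000176, edgeR), with 0.15 in input. The rest of the 12 largest rises among peaks of at least median count were Gpc6 (a glypican) at 0.80, Gm51553 at 0.66, a peak 11070 bp from Etfbkmt at 0.62, Gm29389 at 0.56 and Gm9008 at 0.52. Each of these 5 lost its call when any single library was left out, in the fit over all 8 libraries.

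**Figure D2:**
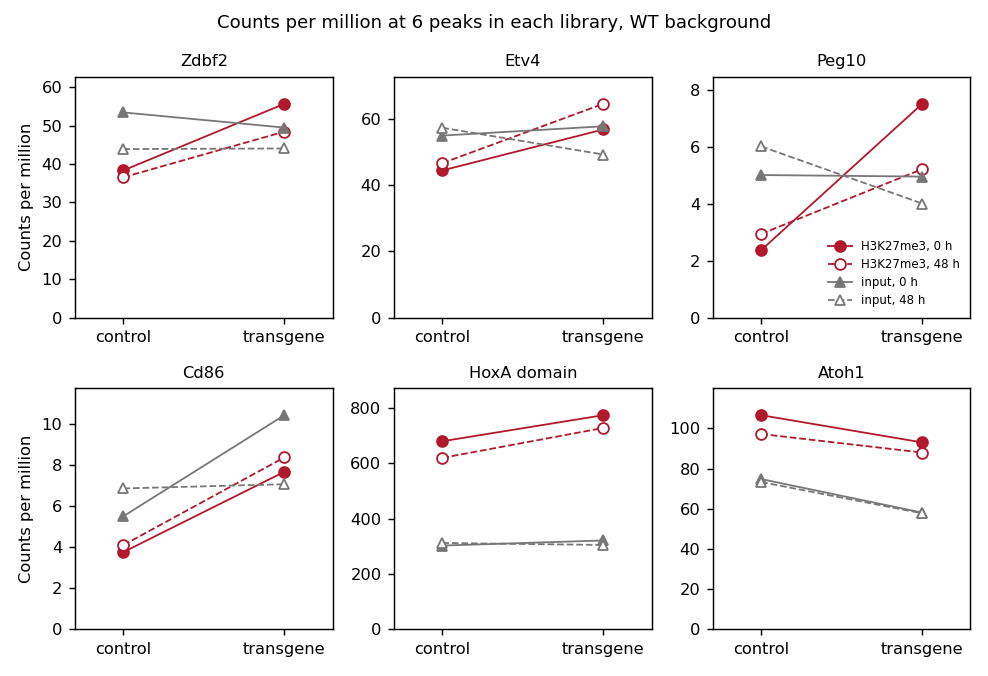
CPM (vertical axis, from 0) of H3K27me3 and input at 6 peaks in each library of the control and transgene lines at 0 h and 48 h; each point is 1 library. At the Zdbf2 and Etv4 peaks the H3K27me3 points of the lines do not overlap.

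Peaks with a clear H3K27me3 enrichment, of at least 0.5 over input on the log2 scale, gave a second group of rises. Of 195 such called peaks with at least the median count that kept their direction at both times, 194 were higher and 1 was lower. After Gm9008 and Gm41359 (0.48), the largest were at Hsd11b2, the enzyme that inactivates corticosterone (0.40 ± 0.08, log2, SE), Mroh6 (0.37), Grrp1 (0.37 ± 0.07), Ache, the enzyme that degrades acetylcholine (0.34 ± 0.08), Casz1, a zinc finger transcription factor (0.33 ± 0.08), and Inhbb, the activin beta B subunit. Hsd11b2 measured 21.7 and 19.8 CPM in the control line and 26.5 and 28.1 CPM in the transgene line. Inhbb measured 32.7 and 30.5 CPM against 40.4 and 38.3 CPM, a difference of 0.32 ± 0.07 (log2, SE, adjusted p = 0.00241, edgeR). In all 6 of these genes the lowest transgene library was above the highest control library. The peaks were chosen as called rises at both times, so this is no separate evidence. None of the 6 kept its call with the offset that follows enrichment. Mroh6, Casz1, Inhbb and Gm41359 also lost it with any single library left out, Grrp1 and Ache in 3 of 4 such fits, Hsd11b2 in 2 of 4, and Casz1 and Gm41359 with total counts.

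The HoxA cluster was covered by 1 peak of 143135 bp, at chr6:52139636-52282771. Hox genes encode the transcription factors that pattern the body axis, and their clusters are the archetypal Polycomb domains of embryonic stem cells. The HoxA peak measured 681 and 620 CPM in the control line and 775 and 729 CPM in the transgene line. Both transgene libraries were above both control libraries. The difference was 0.21 ± 0.01 (log2, SE, adjusted p = 1.76e-49, edgeR), input differed by 0.02 ± 0.04, and H3K27me3 relative to input by 0.18 ± 0.04 (adjusted p = 0.0487, edgeR). DESeq2 gave an adjusted p of 0.127, and with the offset that follows enrichment the difference was 0.05 (adjusted p = 0.173, edgeR).

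The other Hox clusters differed by less. Summed over gene spans, where scaling factors come from the sums and values are slightly lower, HoxA differed by 0.19 ± 0.02, HoxB by 0.09 ± 0.01, HoxC by 0.09 ± 0.02 and HoxD by 0.11 ± 0.02 on the log2 scale (SE). Their inputs differed by 0.02, 0.01, −0.00 and 0.04. For HoxA the control line had ratios of H3K27me3 to input, each scaled to library totals, of 2.26 (0 h) and 2.01 (48 h), and the transgene line 2.40 and 2.38. For HoxC it was 1.81 and 1.75 against 1.94 and 1.86, again without overlap. The HoxB ratios (2.07 and 1.93 against 2.14 and 2.06) and the HoxD ratios (2.08 and 1.92 against 2.18 and 2.02) overlapped between the lines.

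Gene lists were described from peaks summed over each gene and 2000 bp on either side, with genes that share the same peaks counted as 1 region. Over all 18358 regions, 398 (2.17%) were higher in the transgene line and 178 (0.97%) lower, with a median difference of −0.00 on the log2 scale. In input, 3 of 18090 regions (0.0166%) were higher and 7 (0.0387%) lower. Regions of developmental regulators were mostly above 0. All 39 Hox genes fell into 6 regions, of which 5 were higher and 0 lower, with a median of 0.10. Hoxc13, at −0.01, was the region not called.

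Among 27 neuroectoderm regions, 7 were higher and 0 lower (median 0.09), and all 27 had a fitted difference above 0. Of all regions 49.9% were above 0, and of those with H3K27me3 over input of 0.5 to 0.75 (log2) 86.25%. The 7 higher regions were Neurod1, Dlx5, Nkx2-2, Lhx5, Pax6, Six3 and Zic1. Neurod1, a proneural factor, measured 28.8 and 25.3 CPM in the control line and 34.0 and 32.9 CPM in the transgene line, a difference of 0.28 ± 0.07 (log2, SE, adjusted p = 0.00688, edgeR). Pax6, the eye and forebrain regulator, measured 206 and 192 CPM against 228 and 215 CPM, a difference of 0.13 ± 0.03 (adjusted p = 0.00111, edgeR). Lhx5, a LIM homeobox regulator of the forebrain, measured 283 and 271 CPM against 311 and 308 CPM (0.14 ± 0.03, adjusted p = 2.80e-05, edgeR). At each of these 3 genes the lines did not overlap. Over the whole list, the transgene line lay above the control line without overlap in 15 of 27 regions. The same count was not made over all regions, so 15 of 27 cannot be called many or few.

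Of 23 mesoderm regions, 8 were higher and 0 lower (median 0.08). They included Mesp1, which marks early cardiac mesoderm (0.16 ± 0.04, log2, SE), Foxf1 (0.14 ± 0.03), Hand1, Nkx2-5, Foxc2, Tbx5, Gata4 and Lmx1b. Of 13 endoderm regions only Foxa2, the pioneer factor of definitive endoderm, was higher (0.11 ± 0.03). Of 19 regions of Wnt ligands, 7 were higher and 0 lower (median 0.09): Wnt10a, Wnt10b, Wnt7b, Wnt3, Wnt6, Wnt7a and Wnt8b. Wnt7b measured 135 and 136 CPM in the control line and 159 and 154 CPM in the transgene line (0.18 ± 0.03).

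The same lists are among the most enriched regions. The median of H3K27me3 over input on the log2 scale was 1.03 over Hox regions, 0.72 over neuroectoderm, 0.62 over mesoderm and 0.52 over Wnt ligands, against −0.07 over all regions. Of all 408 regions with 0.75 or more, 99 (24.3%) were higher and 0 lower. With the offset that follows enrichment, the neuroectoderm, mesoderm, endoderm, Wnt, imprinted, Polycomb and trophoblast lists had 0 regions called in either direction, and Hox had 0 higher and 1 lower. Because that offset takes out the trend with enrichment, lower values in enriched lists follow from its fit. With single libraries left out, Neurod1 and Pax6 kept their call in 1 of 4 fits, Lhx5 and Wnt7b in 3, Mesp1 in 2, Foxf1 in 1 and Foxa2 in 0. Over all regions that offset left 18 higher and 159 lower.

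**Figure D3:**
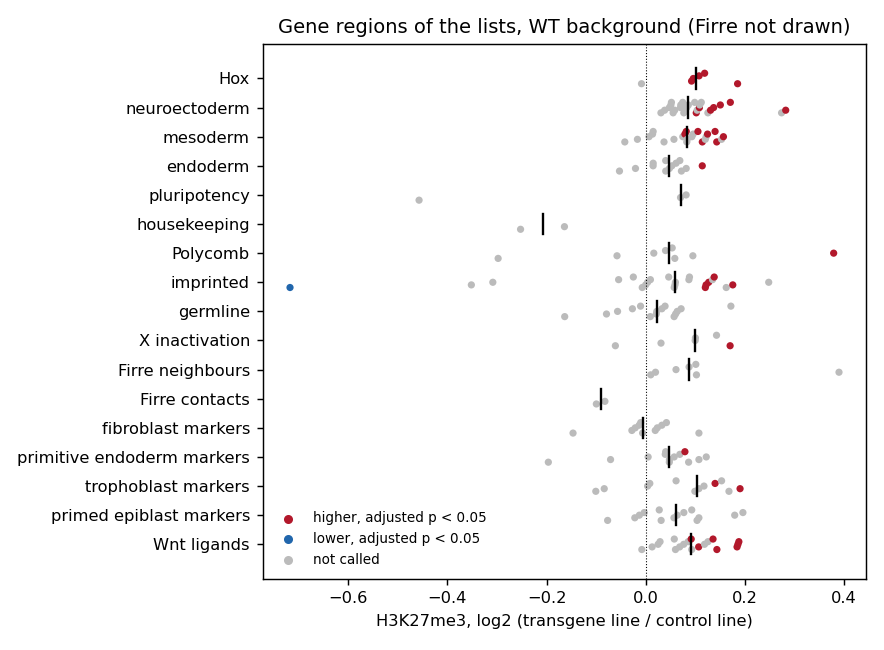
Log2 difference in H3K27me3 between the transgene and control lines (horizontal axis) for each region of the gene lists (vertical axis); vertical ticks are list medians, colours mark calls, and Firre is left out. Hox, neuroectoderm, mesoderm and Wnt regions lie mostly to the right of 0, with medians of 0.08 to 0.10.

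Imprinted genes, a list that does not hold Zdbf2, gave 5 higher and 1 lower of 23 regions (median 0.06). Besides Peg10 (0.18 ± 0.04 over its 4 peaks), the higher ones were Kcnq1, Kcnq1ot1, Cdkn1c and Slc22a18, which belong to 1 imprinted domain and share peaks. Cdkn1c, a growth-restraining cell cycle inhibitor of that domain, measured 366 and 339 CPM in the control line and 395 and 394 CPM in the transgene line (0.14 ± 0.02, log2, SE, adjusted p = 1.12e-06, edgeR). The region of Plagl1 and Hymai was lower (−0.72 ± 0.23, adjusted p = 0.0492, edgeR) at 4.58 and 3.51 CPM against 2.78 and 2.22 CPM, a call kept in 1 of 9 alternatives and in none with a library left out. Cdkn1c gave 0.03 with the offset that follows enrichment (adjusted p = 0.596, edgeR). Among 8 regions of Polycomb genes only Kdm2b, which recruits a variant Polycomb complex to CpG islands, was higher (0.38 ± 0.11, adjusted p = 0.0216, edgeR), at 12.5 and 11.9 CPM against 14.4 and 17.9 CPM. No listed Kdm2b start site lies in a peak. With the offset that follows enrichment the Kdm2b region gave 0.31 (adjusted p = 0.154, edgeR), and with a library left out 0.24 to 0.50.

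Around Firre itself, the gene was the only region called of 8 in its neighbourhood list, and 0 of 2 regions known as Firre contacts were called. Germline genes had 0 of 15 regions called.

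The labelled cell type was checked by markers, for which low H3K27me3 is expected where a gene is active. Of 20 pluripotency genes, 3 had any peak, and 0 of those regions were called. Of 18 housekeeping genes 2 had a peak, with 0 called. Markers of other cell types gave 0 of 11 regions called for fibroblasts, 1 of 13 for primitive endoderm (Gata4), 2 of 12 for trophoblast (Gata2 and Hand1, both higher) and 0 of 14 for primed epiblast.

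Among the falls, Icosl, which encodes the ligand of the T cell receptor ICOS, was, with Atoh1, 1 of the 2 named peaks with the gene's own start site inside. It measured 10.5 and 8.17 CPM in the control line and 5.40 and 6.21 CPM in the transgene line, at chr10:78068462-78071825. The lines did not overlap, and the difference was −0.68 ± 0.15 (log2, SE, adjusted p = 0.00326, edgeR). Other falls were at Hdac7, a class IIa histone deacetylase (−0.83), Catspere2 (−0.80), a peak 2534 bp from Axin2, a feedback inhibitor of Wnt signalling (−0.79), Tafa4 (−0.77), Ebf1, a B cell transcription factor (−0.64), a peak 922673 bp from its nearest gene, 4931417E11Rik (−0.56), Gas7 (−0.55), Tuft1 (−0.54), Marchf10 (−0.54), Gm9794 (−0.52) and Tns1 (−0.50). The highest value of any library at these 12 peaks was 20.7 CPM, at Gm9794. That peak and the one nearest to 4931417E11Rik lie in the stretch of chromosome 6 described below, and their input differed by −0.19 and −0.24 on the log2 scale. The peaks at Gas7 (input −0.39), Marchf10, Ebf1 and Axin2 are on chromosome 11. None of the 12 was called in input. With a library left out, Icosl kept its call in 1 of 4 fits, and Hdac7, Tafa4, Ebf1, Gas7 and the peak nearest to 4931417E11Rik in 0. DESeq2 called none of them.

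A domain over Rapgef4, an exchange factor for small GTPases that responds to cAMP, was called lower on the strength of 1 library. It measured 58.7 and 55.2 CPM in the control line but 61.7 CPM at 0 h and 34.6 CPM at 48 h in the transgene line, at chr2:71968482-71992280. The lines overlapped, with only the 48 h transgene library low, and input differed by 0.07 on the log2 scale. It was the 1 peak of the 40 that was not lower at both times.

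Atoh1, a proneural transcription factor, was the only fall among enriched peaks. Its domain at chr6:64716187-64748499 measured 107 and 97.3 CPM in the control line and 93.1 and 88.0 CPM in the transgene line, a difference of −0.17 ± 0.04 (log2, SE, adjusted p = 0.0144, edgeR). Input was lower too: 74.8 and 73.3 CPM in the control line and 58.0 and 57.7 CPM in the transgene line, a difference of −0.36 ± 0.07 (adjusted p = 0.0122, edgeR). Neither assay overlapped between the lines. With input as an offset, the H3K27me3 difference turned to 0.19 and was not called (adjusted p = 0.777, edgeR).

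Atoh1 lies in a stretch of chromosome 6 where the transgene line had less input DNA. The stretch, from 61 to 75 Mb, was chosen after its values were seen. Its 377 peaks took 0.264% and 0.268% of input counts in the control line and 0.222% and 0.223% in the transgene line. In H3K27me3 they took 0.261% and 0.260% against 0.219% and 0.219%. Neither assay overlapped. The median difference was −0.24 on the log2 scale in input and −0.25 in H3K27me3, while the rest of chromosome 6 gave 0.02 in both.

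**Figure D4:**
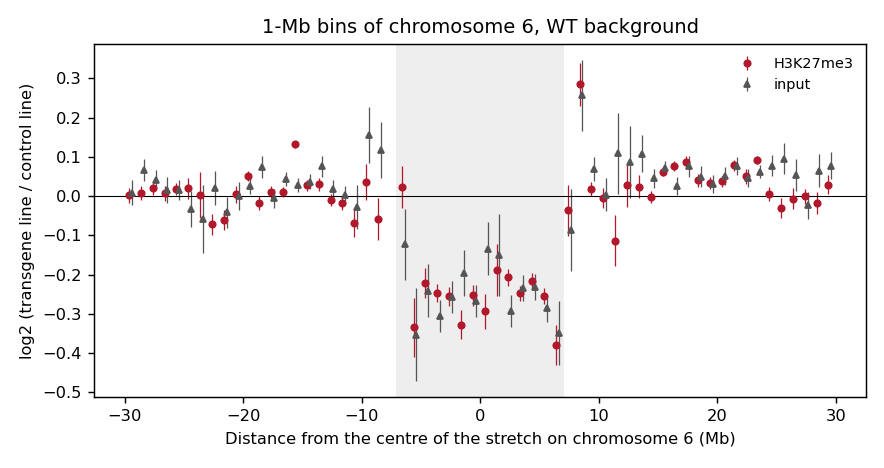
Log2 difference between the transgene and control lines (vertical axis) of H3K27me3 and input in 1-Mb bins of chromosome 6, by distance from the centre of the stretch in Mb (horizontal axis). Inside the stretch (shaded) the median over bins is −0.25 in both assays, with H3K27me3 bins from −0.38 to 0.02, and outside it 0.02 for H3K27me3 and 0.03 for input.

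Over all 2332 bins of 1 Mb, input was higher in 5 (0.214%) and lower in 21 (0.901%), and H3K27me3 in 111 (4.76%) and 57 (2.44%). The 21 lower input bins included 9 on chromosome 6 and 8 on chromosome 11. Chromosome 11 took 8.46% and 8.42% of input counts in the control line and 8.26% and 8.25% in the transgene line. Its H3K27me3 peaks had a median of −0.04 and its input a median of −0.03 on the log2 scale.

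At single peaks, input was higher at 7 of 94774, or 0.00739%, and lower at 7, also 0.00739%; 5036 had an unadjusted p under 0.05. The higher ones were Firre, 3 peaks of the scaffold JH792827.1, Cd86, a peak 166823 bp from Ndst3 and Fgfbp3. The 3 scaffold peaks together measured 30.4 and 30.5 CPM of input in the control line and 96.4 and 87.6 CPM in the transgene line. Their H3K27me3 was 18.6 and 17.8 CPM against 68.0 and 72.4 CPM, with differences of 1.93 to 1.98 on the log2 scale, beside 1.38 to 1.79 in input. The lower ones were Atoh1, the immunoglobulin kappa locus Igk on the same chromosome (−0.61 ± 0.13, log2, SE) and 5 peaks of the scaffold JH584304.1.

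**Figure D5:**
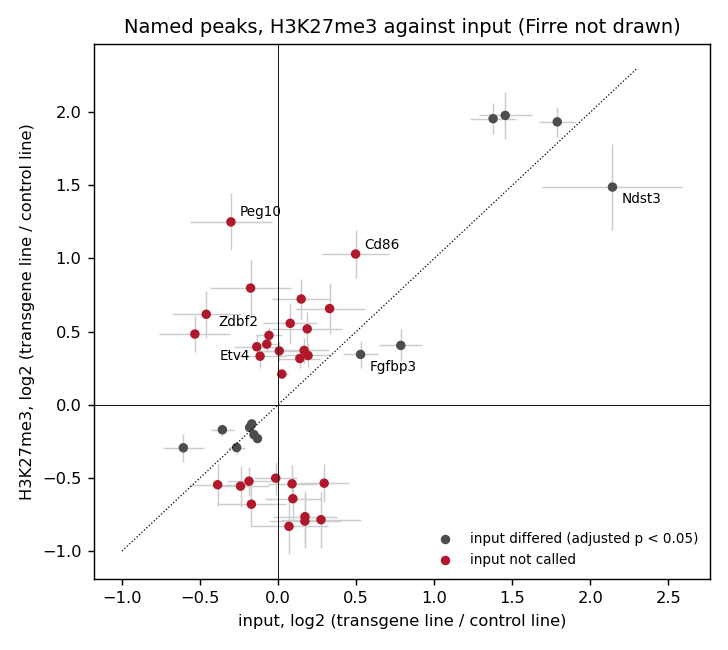
H3K27me3 difference (vertical axis) against input difference (horizontal axis) between the transgene and control lines at the named peaks, both as log2 with SE bars; the dotted line marks equal differences and Firre is left out. The scaffold JH792827.1 peaks and the peak near Ndst3 lie far to the right, while Peg10, Zdbf2 and Etv4 lie left of 0 in input.

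The share of each chromosome in a library's counts differed little between the lines. Over 20 chromosomes the ratio of the lines' mean shares had a lowest value of 0.978 and a highest of 1.07 for H3K27me3, and 0.978 and 1.01 for input. The highest was chromosome X in H3K27me3, with 0.352% and 0.339% in the control line and 0.377% and 0.361% in the transgene line. Its input shares overlapped, at 0.209% and 0.207% against 0.209% and 0.209%. In both lines chromosome X took a larger share of H3K27me3 than of input, and its difference was not separated from the trend with enrichment. The lines' shares did not overlap on 14 of 20 chromosomes in H3K27me3 and on 12 in input. With 2 libraries against 2, the smallest p that an exact two-sided permutation test allows is 0.333, so no share could pass.

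The same contrast was also made in the Firre KO background. The line labelled KO control carried extra Firre sequence: its 2 input libraries held 110 counts at the Firre peak against 9 in the WT control, a ratio of 15.5 (95% exact interval 7.89 to 34.9, counting error only). The KO transgene line matched it, at 0.980 (0.757 to 1.27), so that contrast is not one between lines with and without added Firre sequence. It called 97 of 102957 peaks higher (0.0942%) and 703 lower (0.683%), and its chromosome 11 peaks differed by a median of −0.18 in H3K27me3 and −0.17 in input.

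Of the 307 peaks higher in the WT background, 114 (37.1%) were above 0 in the KO background, with a median of −0.03 on the log2 scale. Over all tested peaks the share was 48.6% and the median −0.01, and over the 40 lower peaks the share was 37.5%. A direct test of the difference between the backgrounds called 409 peaks higher in the WT contrast (0.397%) and 45 lower (0.0437%). In input it called 3 (0.00303%) and 1 (0.00101%), and over gene regions 622 (3.39%) and 117 (0.637%). Away from chromosome 11, it called 219 H3K27me3 peaks higher (0.225%) and 45 lower (0.0463%). The top 1% of peaks by enrichment had a median of −0.03 in the KO contrast, beside 0.12 in the WT contrast.

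The difference between backgrounds was also tested at single peaks. The items below were chosen for their call in the WT contrast, and the test uses the same WT libraries again. Its p-values at them are therefore not independent of that choice. The offset that follows enrichment was not run for this test. The Zdbf2 peak differed by 0.03 ± 0.06 in the KO background (log2, SE), and the difference between backgrounds was 0.45 (adjusted p = 0.000339, edgeR). The Etv4 peak differed by −0.32 ± 0.05 in the KO background and by 0.74 between backgrounds (adjusted p = 1.48e-19, edgeR). In the KO contrast chromosome 11 peaks had an input median of −0.17, and the part of input at Etv4 was not tested. The HoxA peak differed by −0.09 in the KO background and by 0.30 between backgrounds (adjusted p = 2.63e-36, edgeR). For the Cdkn1c region the contrasts gave 0.14 ± 0.02 and 0.13 ± 0.02, and the difference between backgrounds was 0.01 ± 0.04 (adjusted p = 0.951, edgeR).

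At Firre, scaled H3K27me3 in the KO transgene line at 48 h was 0.236 of that at 0 h (0.167 to 0.327), beside 0.222 in the WT transgene line. The line labelled KO control had 164 counts at 0 h and 177 at 48 h.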

How the data were processed

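H3K27me3 and input ChIP-seq read counts per consensus peak were used as deposited by the authors, for 4 H3K27me3 and 4 input libraries of the WT background and, for 1 comparison, the 8 libraries of the KO background. The deposited peak table also gives, per peak of the combined call, a score, a fold enrichment and −log10 q-values, which are the authors' values and served only to describe peaks. Per the submitters' processing notes, BWA 0.7.17-r1188, MACS2 2.2.71, featureCounts and DESeq2 1.26.0 were used with the mm10 build. Whether peak starts count from 0 or 1 is not stated, and coordinates are printed as deposited.

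Counts were tested with edgeR 4.0.16 (TMM scaling, filterByExpr, quasi-likelihood F test, time as block), with Benjamini-Hochberg adjustment over all peaks or regions and a threshold of 0.05. The same fit was run on input, on H3K27me3 and input together (assay by transgene term), on counts summed over genes with 2000 bp on either side, on 1-Mb bins with at least 5 peaks, and on the difference between the backgrounds. Genes were placed by RefSeq spans of GRCm38.p6 without regard to strand, and overlapping genes share their peaks. Enrichment is the log2 ratio of H3K27me3 to input in CPM (counts per 1000000, scaled), and differences are log2 values of the transgene over the control line. H3K27me3 totals ran from 13011769 to 13804844 counts and input totals from 5870865 to 6244333, so input is the less precise. Confidence intervals (95%, exact) cover counting error only.

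Named peaks had an adjusted p under 0.05, at least the median mean count (57.5) and the same direction at both times: the 12 largest rises and falls, the 8 largest each with log2 enrichment of 0.5 or more, and those also called relative to input. Firre, the Hox clusters and called members of the gene lists were named too. A lack of overlap between the lines at items chosen by their calls is no separate evidence. The Rapgef4 domain and the chromosome 6 stretch were chosen after their values were seen, as were peaks called in input. The members, lists and tests were chosen with earlier results of these data known. Counts were also simulated with a dispersion close to the 9.77e-05 that all fits returned, and no other difference between lines outside the changed peaks. On these the H3K27me3 fit recovered 97 of 100 peaks changed by 1 on the log2 scale and 53 of 100 changed by 0.5. It made 4 false calls, and the input fit recovered 75 and 17. The simulation holds only for that spread and cannot tell how many calls in the real libraries are false. Alternatives covered scaling, filters, DESeq2 1.42.0, limma-voom, the block, each library left out and offsets. The offset that follows enrichment and the fits without chromosome 11, the chromosome 6 stretch and scaffolds were added after seeing the data. Results that need certain items are not reported here.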

Additional observations from a re-analysis of the deposited data

Results flagged for a closer look

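Each value here is the log2 difference between the transgene and control lines in the WT background minus that in the KO background, where the test of that difference passed (adjusted p under 0.05, edgeR). The KO contrast is between lines that both carry extra Firre sequence, and no cause of the differences was tested. The named items were chosen for their call in the WT contrast, which enters the same test. Over all H3K27me3 peaks, 409 were higher in the WT contrast and 45 lower, and over input peaks 3 and 1.

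Among named peaks, Firre gave 8.95, a fitted value that rests on a control line with 1 count and is no measure of size. The 3 peaks of JH792827.1 gave 1.78, 1.89 and 1.70. Peg10 gave 1.44, Cd86 1.15 and Disp1 1.01. Gm9008 gave 0.70, Gm41359 0.67, Zdbf2 0.45 and Etv4 0.74. The enriched peaks Mroh6 (0.46), Grrp1 (0.43), Ache (0.42) and the HoxA domain over Hoxa3 (0.30) followed. Icosl, at −0.99, and Gm9794, at −0.53, were lower in the WT contrast.

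Among gene regions, the Hox regions gave 0.35 for Hoxb1, 0.36 for Hoxb13, 0.27 for Hoxc4 and 0.18 for Hoxd1. Hoxb1, Hoxb13 and Wnt3 lie on chromosome 11, where input also differed between the KO lines (median −0.17 over its peaks). Neuroectoderm genes gave 0.17 for Lhx5, 0.19 for Six3, 0.26 for Nkx2-2, 0.17 for Dlx5 and 0.13 for Zic1. Mesoderm genes gave 0.21 for Mesp1, 0.14 for Tbx5, 0.15 for Foxc2, 0.21 for Foxf1, 0.25 for Hand1 and 0.15 for Lmx1b. Foxa2 gave 0.20, the Peg10 region 0.32 and Gata2 0.26. Wnt ligands gave 0.38 for Wnt3, 0.18 for Wnt6, 0.14 for Wnt7a, 0.24 for Wnt7b and 0.31 for Wnt10a.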

How the results depend on the processing

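The 307 H3K27me3 peaks, higher in the transgene line, became 127 with scaling by total counts, 4 with DESeq2, 71 without the time block, 5 with input as an offset, 24 with the offset that follows enrichment, 5 when only peaks with log2 enrichment of 0.5 or more were fitted, and 11 with the offset but without chromosome 11, the chromosome 6 stretch and scaffolds. The 40 H3K27me3 peaks, lower, became 66 with a mean count of at least 50, 0 with DESeq2, 23 without the block, 0 with the input offset, 25 with the enrichment offset, 4 among enriched peaks, 22 without chromosome 11, the stretch and scaffolds, and 7 with that and the offset. The higher share of calls, 88.5%, was 49.0% with the enrichment offset and 75.5% without the block. Leaving out each library in turn, in a fit over all 8 libraries of the assay, gave 21 to 79 higher and 5 to 21 lower; the remaining scalings, filters and limma-voom stayed within 1.5 times of the reported counts.

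DESeq2 called 2 input peaks higher and 0 lower, and leaving out a library gave 4 to 5 and 0 to 3. The 3 peaks higher relative to input became 0 with total counts, with DESeq2 and without the assay by time term; leaving out a library was not run there, since no residual degrees of freedom remain. Gene regions called higher became 261 with total counts and 18 with the enrichment offset, and 42 to 112 (24 to 60 lower) with a library left out. With a flank of 10000 bp, 15 input regions were lower in place of 7. Input bins called higher became 3 with total counts, and 0 to 5 (7 to 9 lower) with a library left out. The background difference, higher at 409 peaks, became 190 with total counts, 60 with DESeq2 and 183 without chromosome 11, the stretch and scaffolds; the background difference, lower at 45, became 3 with DESeq2 and 24 without those peaks. With a library left out they ran from 171 to 333 and from 20 to 34.

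The median of the top 1% of peaks, 0.12, was 0.0923 with total counts, 0.0178 among enriched peaks only, −0.00456 with the enrichment offset, −0.00474 with that offset but without chromosome 11, the stretch and scaffolds, and 0.11 to 0.12 with a library left out. Among named items, the Atoh1 peak turned to 0.19 with input as an offset. With the enrichment offset Hoxb1 turned to −0.0791, Hoxb13 to −0.0199, Hoxc4 to −0.0255, Hoxd1 to −0.0363, Pax6 to −0.0125, Six3 to −0.0123, Zic1 to −0.0351, Tbx5 to −0.00300, Gata4 to −0.00335, Nkx2-5 to −0.00317, Lmx1b to −0.0316 and Wnt3 to −0.0371. The enrichment offset takes out the trend with enrichment by construction, so lower values at enriched peaks and regions follow from its fit. The causes of these changes were not tested. Over all named items, 847 values kept direction and side of the threshold and 481 kept only direction. No chromosome's input share differed by over 5%, so the chromosome shares had no alternative to print. No paired analysis was possible because every group has the single replicate number 1, so replicate numbers form no block; the reported fit already pairs libraries by time. The lower input depth limits the comparison with input, where SEs of the named peaks other than Firre were larger than in H3K27me3.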
